A study of Mus musculus with 6 samples.

Results

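Collagen chain genes encode the polypeptides that fold, in threes, into the collagen triple helix. They were examined in total kidney RNA of a mouse model of autosomal dominant polycystic kidney disease. The members are the genes whose symbol in the deposited table has the form Col, a type number, the letter a and a chain number. This gave 44 genes, listed in 90 transcript rows, out of 23276 gene symbols and 54721 rows in all. Where a gene had several transcripts, the one with the highest mean level stood for it, so no measured difference between groups entered the choice of genes.

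The 6 kidneys came from mice of postnatal day 22 by their labels. The 3 *Pkd1*F/RC SKO kidneys (labelled KspCre; Pkd1 F/RC) carry a hypomorphic RC allele of *Pkd1* and a floxed allele that Ksp/Cre, a Cre recombinase active in renal tubules, recombines. The 3 *Pkd1*F/RC DKO kidneys carry the same alleles and Cre and, in addition, floxed alleles (F/F) of the miR-17∼92 cluster. All 6 kidneys are therefore *Pkd1* mutant, no kidney without the mutation was analysed here, and cells in which Ksp/Cre is silent, such as interstitial fibroblasts, keep the floxed alleles. Measured here is the mean level over all 6 kidneys, as CPM (read counts scaled to a common library total), as the authors deposited it. Values of single kidneys are not listed, so a level has no SD, the depth of each library is unknown, and no test of DKO against SKO was run. *Mir17hg*, the host transcript of the cluster, was at 4.21 CPM and *Pkd1* at 31.8 CPM, means that cannot check the labels.

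Collagens differ in how their triple helices assemble. Fibrillar collagens form the banded fibres of the interstitium and vessel walls, and FACIT collagens (fibril-associated collagens with interrupted triple helices) decorate those fibres. Collagen IV builds the sheet of basement membranes, which underlies every tubule and forms the filter of the glomerulus, and collagen VI forms beaded filaments between cells and fibres. In cystic kidneys both the tubular basement membrane and the interstitium are remodelled.

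The labelled tissue was checked by marker genes. The 5 proximal tubule markers were at 81.8 to 1030 CPM and the 3 markers of the thick ascending limb at 7.98 to 1022 CPM. The lists for distal convoluted tubule, collecting duct, podocyte, endothelium and macrophage were at 1 CPM or more for every gene, with medians of 10.4, 41.0, 23.1, 37.8 and 5.19 CPM. Fibroblast and mural cell markers, genes of the cells known for making interstitial collagen, had a median of 48.6 CPM over 6 genes. None of 4 cartilage markers, 3 skeletal muscle markers and 3 adrenal cortex markers reached 1 CPM. Of 3 fat markers 2 did, with *Adipoq* at 5.82 CPM. Whether these other cells contribute to the collagen levels was not tested.

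Of the 44 collagen genes, 31 were at 1 CPM or more, which is 70.5% against 55.9% of all gene symbols. At 100 CPM or more were 9 of them, 20.5% against 2.56% of all symbols. In kidney RNA a high level can come from many cells or from much RNA in each cell, and these cannot be told apart. Collagen transcripts are long, with a median of 5668 nucleotides against 2312 for all genes with an annotated length, and a long transcript gives more reads per molecule. Levels of genes are therefore compared below in CPM per kilobase of transcript. On this scale the collagen genes had a median of 1.18 against 0.909 for 22770 genes, a much smaller gap than the 8.37 against 2.36 CPM found without the correction.

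**Figure D1:**
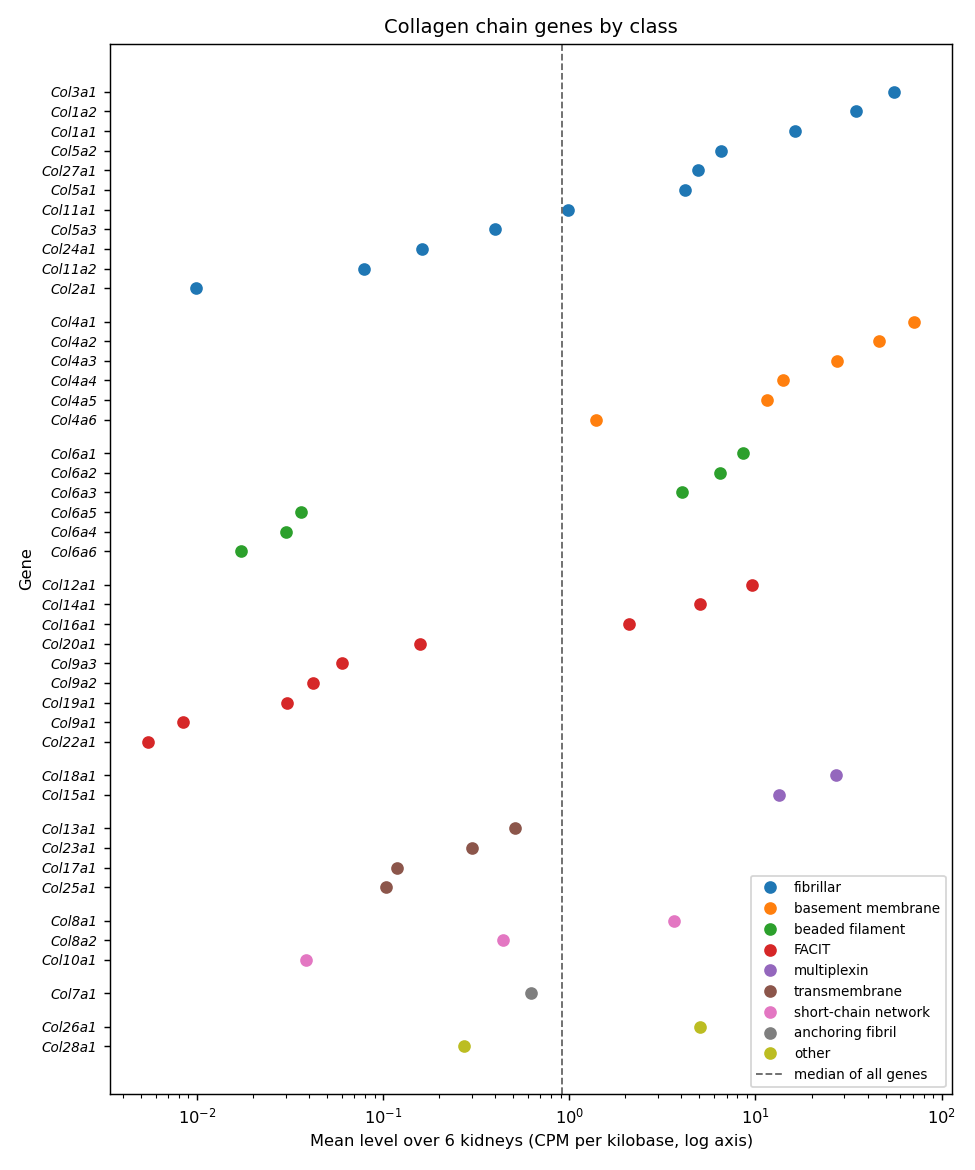
Mean level of each of the 44 collagen chain genes over the 6 kidneys, in CPM per kilobase on a log axis, grouped and coloured by class. Each point is 1 gene with no error bar, since no value of a single kidney is given, and the dashed line is the median of 22770 genes at 0.909. All 6 basement membrane genes lie right of the line, whereas the fibrillar, beaded filament and FACIT genes spread to both sides of it.

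The collagen RNA was concentrated in few genes. The 2 highest held 30.7% of the summed collagen CPM, the 5 highest 59.5% and the 10 highest 84.2%. All collagen genes together reached 2539 CPM, 0.686% of the sum over 1 row for each gene symbol. Basement membrane collagens held 50.7% of the collagen CPM and fibrillar collagens 29.4%. FACIT collagens held 6.18% and beaded filament collagens 4.02%, an order that turned with length, when they held 4.44% and 5.00%. Per kilobase, the share of basement membrane collagens was 44.9% and that of fibrillar collagens 32.2%, so these classes remained in first and second place. The 2 multiplexin genes held 7.86% of the CPM and 10.6% per kilobase, more than the FACIT or beaded filament class.

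**Figure D2:**
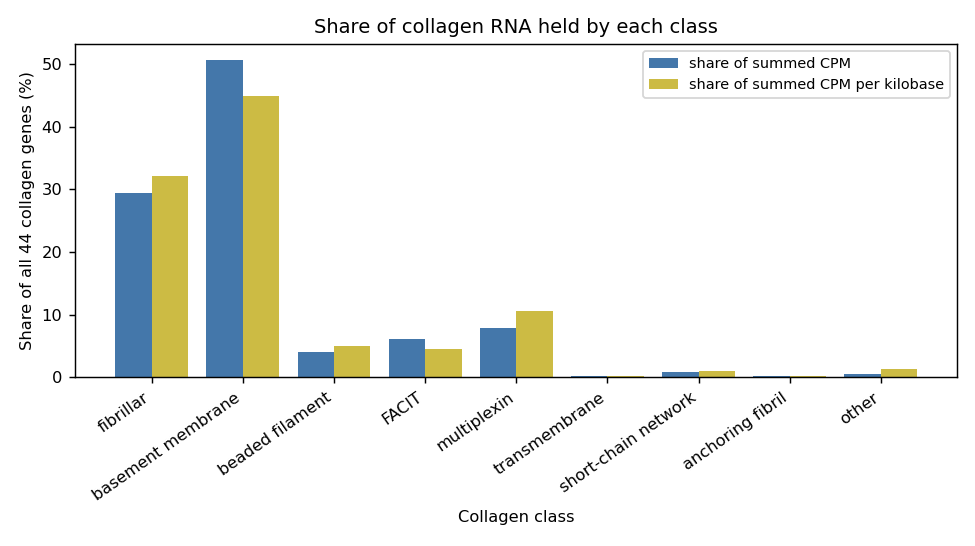
Share of each collagen class in the summed level of the 44 collagen genes, in percent, as CPM (blue) and as CPM per kilobase (yellow). Basement membrane collagens hold 50.7% and 44.9%, and fibrillar collagens 29.4% and 32.2%.

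All 6 collagen IV genes were at 1 CPM or more, the only one of the 4 main classes for which this held. *Col4a1* and *Col4a2* encode the chains found in nearly all basement membranes. *Col4a1* was the highest collagen gene on both scales, with 471 CPM and 71.1 CPM per kilobase, above 98.5% of genes with a length. *Col4a2* followed at 296 CPM and 45.9 CPM per kilobase, so that the ratio of the 2 chains was 1.55 per kilobase. The molecule they form holds more α1 than α2 chains.

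*Col4a3*, *Col4a4* and *Col4a5* encode the chains of the mature glomerular basement membrane, whose mutation causes Alport syndrome. They were at 235, 201 and 75.5 CPM. Per kilobase *Col4a3* was at 27.5, *Col4a4* at 14.1 and *Col4a5* at 11.6, although the molecule takes up these chains in equal number. The ratio of *Col4a3* to *Col4a5* was 2.38 per kilobase of transcript and 3.16 per kilobase of coding length. The *Col4a4* value depends on the row, since its RefSeq transcript had 143 CPM and its highest assembled transcript 201 CPM. The level of *Col4a4* per kilobase was taken from the RefSeq transcript. *Col4a6*, whose chain occurs with that of *Col4a5* in the membrane of Bowman's capsule and some tubules, was lowest at 9.23 CPM and 1.39 CPM per kilobase.

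The collagen IV genes lie in head-to-head pairs on 3 chromosomes, and RefSeq places them as follows on GRCm38.p6, the assembly of mm10. *Col4a1* (chromosome 8, 11198423 to 11312889) and *Col4a2* (11312805 to 11449287) overlap at their starts by 85 bases. *Col4a4* (chromosome 1, 82448419 to 82587034) and *Col4a3* (82586921 to 82722059) overlap by 114 bases. *Col4a6* (chromosome X, 141165403 to 141474095) and *Col4a5* (141475370 to 141689236) are 1274 bases apart. Within these pairs the level per kilobase differed 1.55 times for *Col4a1* over *Col4a2*, 1.95 times for *Col4a3* over *Col4a4* and 8.32 times for *Col4a5* over *Col4a6*. For *Col4a3* over *Col4a4* the ratio was 1.66 per kilobase of coding length and 1.17 between the highest rows in CPM. These are ratios of means, with no replicate error.

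The promoter windows of the first pair are shown because they overlap. A window runs from 250 bases before to 50 bases after an annotated transcript start, is taken from RefSeq on GRCm38.p6 and is written along the strand of its gene. That start can lie inside the gene record, as it does for *Col4a1*, so the overlap of windows differs from that of the records. Capitals mark 3 motifs on either strand, the CCAAT box (CCAAT or ATTGG), the GC box (GGGCGG or CCGCCC) and the TATA box (TATAAA or TTTATA). The window of *Col4a1* is chr8:11312777-11313076 on the minus strand and that of *Col4a2* is chr8:11312555-11312854 on the plus strand. They share 78 bases.
Col4a1: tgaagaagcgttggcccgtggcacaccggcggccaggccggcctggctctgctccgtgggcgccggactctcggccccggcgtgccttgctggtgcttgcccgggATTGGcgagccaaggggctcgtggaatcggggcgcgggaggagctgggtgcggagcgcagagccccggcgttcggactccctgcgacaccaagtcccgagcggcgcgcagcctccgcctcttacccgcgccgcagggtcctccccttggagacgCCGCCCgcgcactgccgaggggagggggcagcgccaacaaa
Col4a2: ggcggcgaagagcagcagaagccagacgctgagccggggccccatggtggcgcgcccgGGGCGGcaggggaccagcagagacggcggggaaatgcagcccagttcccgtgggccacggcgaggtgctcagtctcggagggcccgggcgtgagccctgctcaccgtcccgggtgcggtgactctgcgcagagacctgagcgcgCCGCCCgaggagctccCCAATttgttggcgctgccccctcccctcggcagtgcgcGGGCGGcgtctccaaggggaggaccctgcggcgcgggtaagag
Both windows are rich in CG dinucleotides, with 37 and 33 of them in 300 bases, against a median of 8 for 27025 genes with a window (the highest count where a gene has several windows). Both hold a CCAAT box and at least 1 GC box, and neither holds the letters of the TATA box. The GC box of the *Col4a1* window lies in the shared bases. It is the same site as the last GC box of the *Col4a2* window, read on the other strand.

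Among the 11 fibrillar genes, 9 were at 1 CPM or more. *Col1a1*, *Col1a2* and *Col3a1*, the chains of collagens I and III that make up most interstitial fibres, held 83.0% of the fibrillar CPM. *Col3a1* was at 307 CPM and 55.3 CPM per kilobase, the second highest collagen gene. *Col1a2* was at 184 CPM and 34.5 CPM per kilobase. *Col1a1* was at 128 CPM in its highest row and at 96.7 CPM in its RefSeq row, from which its level of 16.3 CPM per kilobase was taken. *Col1a1* was thus below *Col1a2*, with a ratio of 0.473 per kilobase and 0.694 between the highest rows, although collagen I holds more α1 than α2 chains. The direction was the same with the coding length (0.495). The transcripts used are the longest of both genes, so the longest transcript gives the same 0.473 and is no separate check.

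Collagen V and XI chains join the main fibres and limit their width. *Col5a2* was at 43.0 CPM and *Col5a1* at 35 CPM, with 6.49 and 4.17 CPM per kilobase, and *Col5a3* at 2.44 CPM and 0.399 CPM per kilobase. *Col11a1* had 7.51 CPM, whereas *Col11a2* stayed below the threshold at 0.476 CPM. *Col27a1*, a fibrillar collagen known from growth plate cartilage, was at 37.2 CPM and 4.89 CPM per kilobase, beside *Col5a1*. *Col24a1* was at 1.16 CPM. *Col2a1*, the main collagen of cartilage, was at 0.0482 CPM, close to the lowest value of the table, 0.0263 CPM. *Col5a2* (chromosome 1, 45374331 to 45503282) lies 24624 bases from *Col3a1* (45311538 to 45349706), and the level per kilobase of *Col3a1* was 8.52 times that of its neighbour.

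The promoter windows of *Col1a2* (chr6:4505368-4505667, plus strand) and *Col3a1* (chr1:45311288-45311587, plus strand) are given as the highest fibrillar genes with a window, in the same notation.
Col1a2: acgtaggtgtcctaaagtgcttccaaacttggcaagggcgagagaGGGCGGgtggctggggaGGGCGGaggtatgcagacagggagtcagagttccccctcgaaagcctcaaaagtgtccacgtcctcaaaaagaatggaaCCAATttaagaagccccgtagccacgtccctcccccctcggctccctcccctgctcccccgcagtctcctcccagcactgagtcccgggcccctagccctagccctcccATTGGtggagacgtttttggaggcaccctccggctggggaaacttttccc
Col3a1: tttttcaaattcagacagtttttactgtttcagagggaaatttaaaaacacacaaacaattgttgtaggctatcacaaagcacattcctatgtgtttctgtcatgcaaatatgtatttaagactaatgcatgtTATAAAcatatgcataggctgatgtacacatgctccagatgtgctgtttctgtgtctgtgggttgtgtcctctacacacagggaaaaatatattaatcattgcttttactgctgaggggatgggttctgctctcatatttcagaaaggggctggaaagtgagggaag
They differ in base composition, with 61.0% G and C in *Col1a2* and 37.7% in *Col3a1*, and with 13 and 0 CG dinucleotides. The *Col1a2* window holds 2 CCAAT boxes and 2 GC boxes, and the *Col3a1* window holds 1 match to the TATA box and none to the other motifs. Windows were found for 35 of the 44 collagen genes, all but *Col1a1*, *Col2a1*, *Col4a3*, *Col5a2*, *Col9a3*, *Col12a1*, *Col14a1*, *Col22a1* and *Col26a1*. Of these 22 held the GC box, 62.9% against 38.2% of 27025 genes, where a gene counts if any of its windows holds the motif. The CCAAT box was in 13 (37.1% against 41.1%) and the TATA box in 5 (14.3% against 15.7%). Among collagen genes at 1 CPM or more 16 of 25 windows held the GC box, and among those under it 6 of 10.

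Collagen VI separated into 2 sets of chains. *Col6a1*, *Col6a2* and *Col6a3*, whose products assemble with one another, were at 35, 25.5 and 40.9 CPM. Per kilobase they were at 8.53, 6.45 and 4.05, which turns the order of *Col6a1* and *Col6a3*, since the *Col6a3* transcript is 10106 nucleotides long and that of *Col6a1* 4100. *Col6a4*, *Col6a5* and *Col6a6*, later found chains that resemble α3, were at 0.221, 0.336 and 0.151 CPM. The 2 sets also lie apart in the genome. *Col6a1* and *Col6a2* are on chromosome 10, 85161 bases from each other, and *Col6a3* is on chromosome 1. The 3 low genes lie close together on chromosome 9, with 27823 bases between *Col6a6* and *Col6a5*.

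FACIT collagens were uneven. Of 9 genes 4 were at 1 CPM or more, and *Col12a1* alone held 69.9% of the class. *Col12a1*, whose product binds collagen I fibres in tissue under tension, was at 110 CPM and 9.53 CPM per kilobase, the latter with the length of the symbol's longest transcript because its RefSeq identifier had no match. *Col14a1*, a relative of *Col12a1*, was at 32.5 CPM and 5.05 CPM per kilobase. *Col16a1* was at 10.9 CPM and 2.10 CPM per kilobase. *Col20a1* passed only through a transcript assembled from the reads, at 3.27 CPM, whereas its RefSeq transcript had 0.791 CPM. The 3 collagen IX genes, which belong to cartilage, were at 0.0322 to 0.172 CPM, *Col19a1* at 0.129 CPM and *Col22a1* at 0.0482 CPM. The lowest of them, *Col9a1*, and *Col22a1* were close to the lowest listed value, 0.0263 CPM, which 4617 rows share. No gene with the symbol *Col21a1* was listed. All 4 genes of collagens II and IX were thus at 0.172 CPM or less, and the highest of the cartilage markers was at 0.181 CPM. Those markers were *Acan*, *Comp*, *Matn1* and *Matn3*.

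The remaining 12 genes belong to smaller classes. *Col18a1* and *Col15a1* encode multiplexins, collagens of the basement membrane zone that carry heparan or chondroitin sulphate. They were at 130 and 69.2 CPM, with 27.2 and 13.4 CPM per kilobase, in sixth and ninth place of the collagen genes. *Col8a1*, a short-chain collagen of vessels and the subendothelium, was at 18.5 CPM and its partner *Col8a2* at 1.92 CPM, a ratio of 8.19 per kilobase. *Col10a1*, a marker of hypertrophic cartilage, was at 0.121 CPM. *Col26a1* was at 13.8 CPM and, with a short transcript of 2724 nucleotides, at 5.06 CPM per kilobase. *Col7a1*, the anchoring fibril collagen of skin, was at 5.72 CPM. *Col28a1* was at 1.15 CPM. The 4 transmembrane collagens were low, with *Col23a1* at 1.70, *Col13a1* at 1.68, *Col17a1* at 0.647 and *Col25a1* at 0.270 CPM.

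Transcripts of 1 gene often had nearly the same level. Of 23 collagen genes with several rows, 11 had all rows within 1.1 times of each other, as with *Col4a3* at 235 CPM in both. Whether a read was counted for several transcripts is not given in the sources used here. In 6 genes the rows were over 1.5 times apart, and *Col20a1* showed the widest spread at 7.85 times. For *Col3a1* the RefSeq transcript had 307 CPM and an assembled transcript 139 CPM, and for *Col16a1* these were 10.9 and 4 CPM. In 12 genes the row that stood for the gene was an assembled transcript. In some of these the RefSeq row had the same level, as in *Col1a2* at 184 CPM. With RefSeq rows only, 39 of 44 genes kept the same level to 3 digits.

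**Figure D3:**
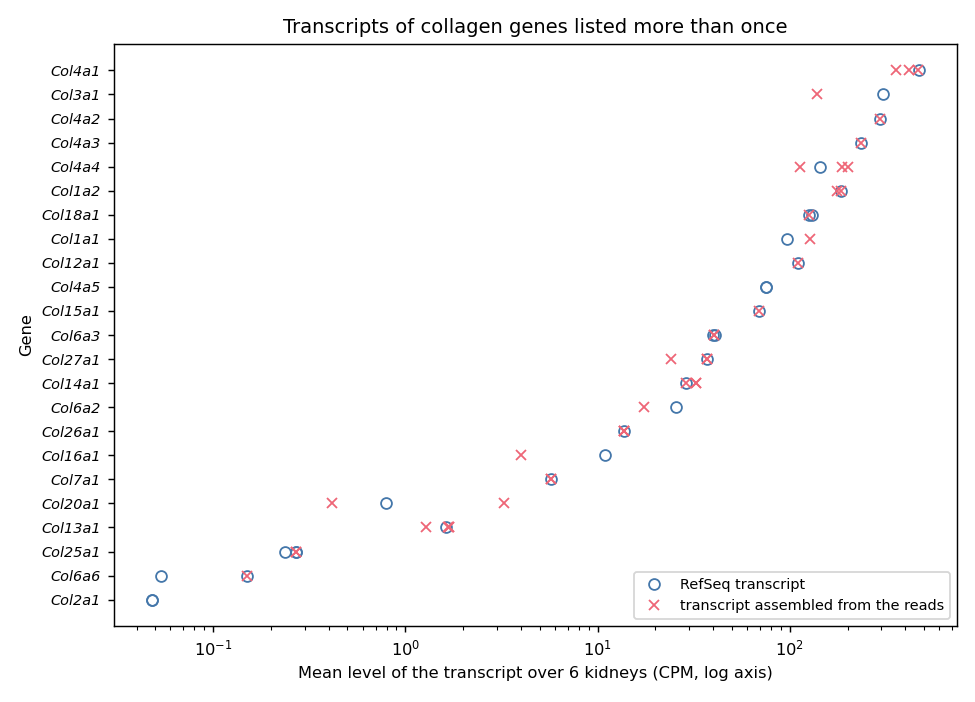
Mean level of every listed transcript of the 23 collagen genes with several rows, in CPM on a log axis. Circles are RefSeq transcripts and crosses are transcripts assembled from the reads. Rows of *Col4a3* or *Col7a1* coincide, whereas those of *Col20a1* run from 0.416 to 3.27 CPM.

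Seed matches in the 3′-UTRs of the collagen genes were counted because the groups of the study differ in the miR-17∼92 cluster. miR-29, which is not part of the cluster and is widely known to repress collagens, was counted for comparison. The mature sequences are from RefSeq, with the seed (bases 2 to 8) in capitals. miR-17 and miR-20a share 1 seed, and so do miR-29a, miR-29b and miR-29c.
miR-17-5p: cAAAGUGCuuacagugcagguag
miR-19b-3p: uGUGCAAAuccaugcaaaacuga
miR-92a-3p: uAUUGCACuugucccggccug
miR-29b-3p: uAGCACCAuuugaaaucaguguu
A 3′-UTR of the gene's RefSeq transcript was found in GENCODE M21 for 42 of the 44 genes, all but *Col12a1* and *Col6a3*. The match to the miR-17 seed was in 5 of them, 11.9% against 11.0% of 18942 genes. Those were *Col4a2*, *Col4a3*, *Col4a4*, *Col17a1* and *Col26a1*. Per kilobase of 3′-UTR there were 0.112 matches in collagen genes and 0.0995 in all genes. Thus 3 of the 6 collagen IV genes had a match, a count not corrected for length. The 3′-UTRs of *Col4a3* and *Col4a4* have 3175 and 4708 nucleotides, against a median of 788 for all genes. The miR-19 seed, shared by miR-19a and miR-19b, had a match in 0 of 42 against 10% of all genes. The miR-92a seed had a match in 5 (11.9% against 5.99%), the fibrillar genes *Col1a1*, *Col1a2*, *Col5a1*, *Col11a1* and *Col27a1*. That of miR-18a had one in 4 (9.52% against 7.21%), *Col5a1*, *Col8a1*, *Col24a1* and *Col28a1*.

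The miR-29 seed had a match in 23 of 42 collagen genes, 54.8% against 12% of all genes, and 11 had more than 1. The median 3′-UTR was 965 nucleotides long for collagen genes and 788 for all genes. Per kilobase of 3′-UTR there were 0.782 matches in collagen genes and 0.111 in all genes, so the gap did not close when length was taken into account. The matches were in all 6 basement membrane genes (13 sites), in 9 of 11 fibrillar genes (15 sites), in 3 of 8 FACIT genes (5 sites) and in 1 of 5 beaded filament genes (1 site). Of the 4 transmembrane genes none had one. Of 29 collagen genes at 1 CPM or more 20 had a match, and of 13 under it 3 had one. This split was not made for all genes and takes no account of 3′-UTR length or class, so a link between sites and level was not tested. A match is a stretch of letters and does not show that the miRNA binds there, and whether these miRNAs change the collagen levels cannot be read from a mean over all kidneys.

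**Figure D4:**
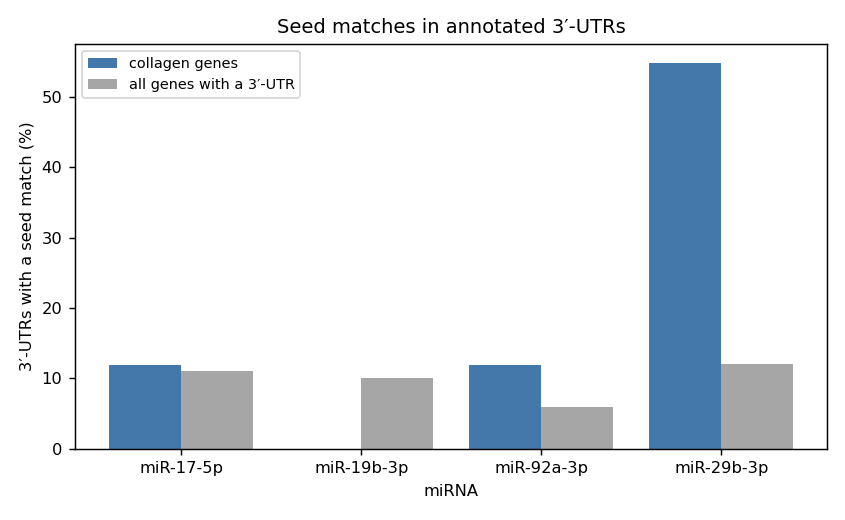
Share of annotated 3′-UTRs that hold a match to the seed of miR-17-5p, miR-19b-3p, miR-92a-3p or miR-29b-3p, in percent, for 42 collagen genes (blue) and 18942 genes (grey). The shares are 11.9% and 11.0% for miR-17, 0% and 10% for miR-19b, 11.9% and 5.99% for miR-92a, and 54.8% and 12% for miR-29b.

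Sites of the highest collagen genes are shown with 10 bases of the 3′-UTR on either side and the 7 bases of the match in capitals. The miR-29 sites of *Col4a1*, *Col3a1* and *Col1a1* begin at bases 33, 235 and 919 of their 3′-UTRs, and the first of *Col4a2* at base 43.
Col4a1, miR-29: cgtcacaacaTGGTGCTactccccccc
Col4a2, miR-29: aaggccacgtTGGTGCTtatccttctg
Col3a1, miR-29: aatgtctcaaTGGTGCTataataaata
Col1a1, miR-29: aaggaatttcTGGTGCTatagaagctg
The miR-17 sites of the collagen IV genes begin at base 668 in *Col4a2*, at base 808 in *Col4a3*, and at bases 523 and 1575 in *Col4a4*, whose annotated 3′-UTR is the longest of these at 4708 nucleotides.
Col4a2, miR-17: ggagatgataGCACTTTtttctatcaa
Col4a3, miR-17: tactaaatgtGCACTTTatccccactc
Col4a4, miR-17, first: tttaagccagGCACTTTaaataattgt
Col4a4, miR-17, second: acttttcagtGCACTTTagaataattg

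Genes that make, join, bind and cut collagen were mostly present as well. Of 57 such genes 49 were at 1 CPM or more, with a median of 14.3 CPM. Over all gene symbols 55.9% were at 1 CPM or more, and the median was 2.36 CPM. Among 10 genes of prolyl hydroxylation, which stabilizes the triple helix, 9 were at 1 CPM or more, and the highest per kilobase was *Ppib* at 84.8, a prolyl isomerase. All 5 lysyl hydroxylases and collagen glycosyltransferases were. *Glt25d1* (*Colgalt1*) was the highest of them per kilobase at 8.79, followed by *Plod2* at 8.53, whereas in CPM *Plod2* (31.2) was above *Glt25d1* (29.0). All 9 genes of collagen folding and export were, and *Serpinh1*, the collagen chaperone HSP47, was at 118 CPM and 51.9 CPM per kilobase, between *Col4a2* and *Col3a1*. The 6 crosslinking enzymes ranged from 3.45 to 47.0 CPM, with *Loxl2*, which acts on collagen IV, as the highest. *Pxdn*, peroxidasin, which forms the sulfilimine bond of collagen IV, was at 35.3 CPM.

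Propeptide proteinases and their enhancers were uneven, with 8 of 10 at 1 CPM or more. *Mep1a*, a meprin of the proximal tubule brush border, was at 529 CPM, *Pcolce* at 35.1 CPM and *Bmp1* at 15.0 CPM. Of 10 collagen receptors 8 were at 1 CPM or more. *Itgb1*, the β1 integrin subunit, was at 249 CPM, its partner *Itga1* at 106 CPM, and the discoidin receptors *Ddr1* and *Ddr2* at 53.4 and 29.1 CPM. Per kilobase these 4 genes were at 65.3, 4.93, 14.0 and 3.50, so that *Ddr1* was above *Itga1*. Of 7 collagen-degrading proteinases 4 were at 1 CPM or more, a share near the 55.9% of all gene symbols. *Mmp14* was at 33.5 CPM and *Mmp2* at 16.1 CPM, whereas *Mmp9* was at 0.599 CPM and *Mmp1a* at the lowest value of the table.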

How the data were processed

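Stranded libraries were prepared from total RNA of 3 SKO and 3 DKO kidneys and sequenced to 51 bp from 1 end. After trimming, the authors used TopHat2 2.0.12 with the iGenomes annotation to map the reads to mm10, and left out alignments whose mapping quality was below 10. The submitters' processing notes also name Cufflinks, featureCounts of Subread 1.4.6 and edgeR 3.2.4. The counting options are not given in the sources used here. The deposited value used is a log2 CPM, the authors' mean over all 6 kidneys for each transcript, and it was converted to CPM here. The other columns hold the authors' own comparison of DKO with SKO (fold change, test statistic, p-value and adjusted p-value) and were not used. No value of a single kidney is listed, so depth is unknown and the planned test could not be run.

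CPM per kilobase divides the highest RefSeq row by its GENCODE M21 transcript length. Collagen classes, pathway lists and markers were written by hand, and members and lists were chosen with earlier results of these data known. Values are named for every collagen gene at 1 CPM or more of the 4 main classes, the 10 highest per kilobase and neighbouring genes. Further values of other members and of pathway genes were chosen after they were seen, as were the motif and seed searches. List symbols not found were sought through RefSeq synonyms. The row choice and the site search were tested on simulated data. Python 3.11.15, pandas 2.3.3 and numpy 2.4.6 were used.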

Additional observations from a re-analysis of the deposited data

How the results depend on the processing

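The collagen genes at 1 CPM or more numbered 31, and between 26 (threshold of 2 CPM) and 32 under the other thresholds and row choices. When all rows of a gene were summed, which can count a read several times, the collagen CPM rose from 2539 to 6248. It was 2357 with the median row and 2442 with RefSeq rows only. With summed rows the shares of fibrillar, basement membrane, beaded filament and FACIT collagens were 23.1%, 57.2%, 3.85% and 5.79%, and per kilobase they were 32.2%, 44.9%, 5.00% and 4.44%. With genes under 1 CPM left out, the basement membrane share was 50.8%, the beaded filament share 4% and the FACIT share 6.17%. The FACIT and beaded filament classes changed places per kilobase only. The median gene of these classes was at 4.17, 20.8, 2.04 and 0.0604 CPM per kilobase. Per kilobase of coding length it was at 6.35, 37.6, 2.10 and 0.0841, and with the longest transcript the FACIT median was 0.0564. Among single genes, the level moved over 1.5 times in 20 of 44 with summed rows and in 1, *Col20a1*, with the median row or RefSeq rows only. Leaving out a replicate was not run, since the table holds no value of a single kidney. No paired analysis was possible because the labels give no shared replicate numbers and the table lists no single kidneys.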
